A study of Homo sapiens with 4 samples.

Results

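The aminoacyl-tRNA synthetase genes were read in 4 RNA-seq libraries of anaplastic thyroid cancer cell lines. They were taken by name, 36 of the 26485 gene identifiers in the tables, of which 20 encode cytosolic and 16 mitochondrial enzymes. The choice used gene names and no expression threshold. Their expression was taken as TPM, which gives each gene's share of all transcripts in a library, corrected for transcript length. All 36 had a mean of at least 1 TPM, so none was lost to the filter on low values.

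The groups were SW1736 with vehicle (DMSO), SW1736 with DHT, 8505C with vehicle and 8505C with DHT, with 1 library each. DHT stands here for dihydrotanshinone, a tanshinone of the plant Salvia, given at 1.5 µM for 24 h. Both lines are established cultures from anaplastic thyroid carcinoma, a dedifferentiated tumour, and each stands for 1 tumour only. The libraries differ in line and in treatment alone, as far as the labels say, and a comparison inside 1 line rests on a single pair of libraries.

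A synthetase joins 1 kind of amino acid to its tRNA, the step that fixes the meaning of each codon. Most amino acids have a cytosolic enzyme and a separate nuclear-encoded enzyme that is imported into mitochondria, whose gene symbol ends in 2. GARS and KARS, for glycine and lysine, each supply both compartments from 1 gene. EPRS joins the enzymes for glutamate and proline in 1 protein, and FARSA and FARSB are the subunits of the cytosolic phenylalanine enzyme. Mitochondria have no glutamine enzyme of their own: EARS2 loads glutamate, which the amidotransferase of GATB, GATC and QRSL1 then converts. Several cytosolic enzymes assemble into the multisynthetase complex, held together by the scaffolds AIMP1, AIMP2 and EEF1E1. Many cytosolic synthetase genes are known targets of ATF4, the transcription factor of the amino acid and integrated stress responses, which binds the C/EBP-ATF response element (CARE).

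Since that element would set cytosolic apart from mitochondrial genes by sequence, the promoters were searched first. RefSeq windows (GRCh38.p14) from 250 bases before to 50 bases after the start were held for 30 of the 36 genes. DARS, LARS, VARS, YARS, AARS2 and VARS2 had none. The letters TGATGNAA, read on both strands (TTNCATCA on the other), were found in 7 of 16 cytosolic windows and in 1 of 14 mitochondrial ones, that of YARS2. Among all protein-coding genes with a window, 571 of 15843 held them, or 3.6%. The 7 cytosolic genes were all among the 10 known ATF4 targets with a window, a list that was drawn in part from such sites. The matches follow with their surroundings, on the strand of the gene, with the CARE letters in capitals, because they show how alike the sites are.
AARS, chr16:70289675-70289704 (minus strand): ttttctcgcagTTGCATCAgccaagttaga
CARS, chr11:3057407-3057436 (minus strand): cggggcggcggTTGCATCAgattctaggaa
GARS, chr7:30594834-30594863 (plus strand): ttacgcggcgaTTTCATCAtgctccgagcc
IARS, chr9:92293692-92293721 (minus strand): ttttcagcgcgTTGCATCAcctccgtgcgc
MARS, chr12:57488053-57488082 (plus strand): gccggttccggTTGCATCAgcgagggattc
NARS, chr18:57621804-57621833 (minus strand): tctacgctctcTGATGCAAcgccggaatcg
TARS, chr5:33440956-33440985 (plus strand): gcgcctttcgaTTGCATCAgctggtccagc
YARS2, chr12:32756076-32756105 (minus strand): atccacactgcTGATGGAAaaattaagttt

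Of the 7 cytosolic matches, 6 spelled the same site, TTGCATCA or its reverse complement in NARS. GARS differed from it at the free position, as did the mitochondrial YARS2. The places of the 7 cytosolic matches were not alike. In AARS the match began 187 bases before the start, in GARS 33 and in IARS 13, in CARS and MARS it lay across the start, and in TARS and NARS it began in the first transcribed bases. The E-box CACGTG, the letters bound by MYC, which do not overlap those of CARE, gave no such split. It was present in 1 of 16 cytosolic windows (IARS) and 3 of 14 mitochondrial ones (CARS2, EARS2 and MARS2), against 10.9% of genes. A match describes letters and shows no binding.

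Across the 4 libraries the aligned depth, from the ratio of coverage to FPKM, lay between 3.27 and 4.15 Gb. The number of reads per gene is unknown, which leaves counting error unstated. KRT7, KRT8 and KRT18, keratins of simple epithelia, were at 403 TPM or more in every library. Of the thyroid transcription factors, FOXE1 was at 60.6 and 22.3 TPM in SW1736 but at 0.101 and 0 in 8505C, and NKX2-1 was at 69.8 and 174 TPM in 8505C and listed at 0 in both SW1736 libraries. Of 5 immune markers 2 had a mean of at least 1 TPM (CD14 and CD68), while CD3E was listed at 0 throughout and PTPRC did not exceed 0.0498 TPM. The summed level of 3 endothelial markers was 0.029 and 0.118 TPM in SW1736 and 171 and 207 TPM in 8505C. Almost all of it came from CDH5 and TIE1, while PECAM1 was at 0.175 and 0.207 TPM in 8505C. The sum of 4 fibroblast markers was 588 and 283 TPM in SW1736 and 0.767 and 1.04 TPM in 8505C. COL1A1 and COL1A2 made up almost all of it in SW1736, where PDGFRB was at 0.916 and 0.298 TPM and DCN at 0. The part of these markers in the results below was not tested. In such bulk libraries, fewer cells of a kind and less RNA per cell cannot be told apart.

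Cytosolic synthetase mRNAs were more abundant than mitochondrial ones. In SW1736 with DMSO, the 20 cytosolic genes ranged from 56.9 TPM (WARS, for tryptophan) to 273 TPM (TARS, for threonine), with a median of 129 TPM. The 16 mitochondrial genes ranged there from 5.36 TPM (PARS2, for proline) to 92.3 TPM (IARS2, for isoleucine), with a median of 20.6 TPM. In 8505C with DMSO, the medians were 126 and 25.9 TPM, and the ends of both ranges were held by other levels of TARS (433 TPM), PARS2 (4.43 TPM) and IARS2 (106 TPM), with CARS, for cysteine, lowest of the cytosolic genes at 71.5 TPM. The ranges overlapped through IARS2, and in SW1736 through CARS2 as well, which stood at 62.4 TPM there.

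**Figure D1:**
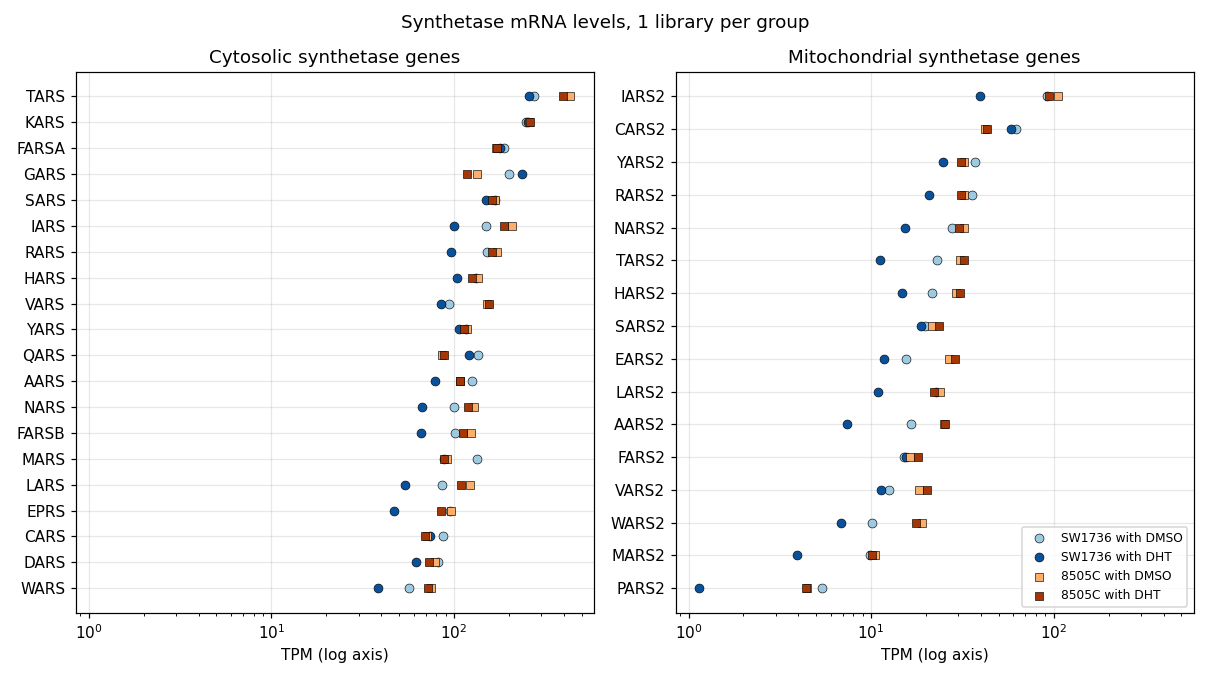
TPM of each synthetase gene on a log axis, cytosolic genes on the left and mitochondrial genes on the right, in order of their mean; light and dark blue circles are SW1736 with DMSO and with DHT, light and dark orange squares 8505C with DMSO and with DHT, each from 1 library. The dark blue circles of most mitochondrial genes stand to the left of the other libraries, down to 1.15 TPM for PARS2, whereas the 8505C squares of a gene lie close together.

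The balance between the compartments was taken from summed TPM. In SW1736 with DMSO, the cytosolic genes summed to 2719 TPM and the mitochondrial genes to 427 TPM, a ratio of 6.36. In 8505C with DMSO, the sums were 2928 and 469.9 TPM and the ratio was 6.23. Before treatment the lines thus had nearly the same ratio, although single genes differed. TARS supplied 10.0% of the cytosolic sum in SW1736 and 14.8% in 8505C, and IARS2 21.6% and 22.6% of the mitochondrial sum.

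For the 13 amino acids with 1 gene for each compartment, the cytosolic gene was the higher one in every library. Its excess differed by amino acid: in SW1736 with DMSO it was 1.39 times for cysteine (CARS over CARS2), 1.63 times for isoleucine and 13.6 times for methionine (MARS over MARS2), with a median of 5.61 times. In 8505C with DMSO, it ran from 1.71 times for cysteine to 14.1 times for threonine (TARS over TARS2), with a median of 4.65 times.

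The main comparison asked what DHT did to the synthetase mRNAs of each line. Most were lower in SW1736, as were most of all genes, and the mitochondrial median was below the cytosolic one. In 8505C almost none moved. Differences are of log2(TPM + 1), which understates the change of low genes. A difference of -1 is a halved TPM + 1, which is close to a halved level only where TPM is high.

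In SW1736, 33 of 36 synthetase genes had a lower level with DHT than with DMSO, 18 of 20 cytosolic and 15 of 16 mitochondrial. Of all 11723 genes compared, 9123 were lower. Past 2-fold, 5 of 36 were lower and 0 higher, against 15.6% and 2.78% of the 11723 protein-coding genes compared. Past 1.5-fold, 15 were lower and 0 higher, against 38.2% and 4.7% of all genes. Most genes of this library were thus below their DMSO level, and the share of synthetase genes past either fold was near that background. The median difference of all genes was -0.42, that of the 20 cytosolic genes -0.365 and that of the 16 mitochondrial genes -0.67. These medians lay closer together with some genes left out. The cytosolic one was -0.48 without GARS and KARS, and the mitochondrial one -0.54 without MARS2 and PARS2. Centred on the median gene (a shift of -0.43), the cytosolic median turned to 0.06 and the mitochondrial median was -0.24. After that centring 1 synthetase gene was 2-fold lower and 0 higher, against 4.06% and 4.78% of all genes.

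Levels go along with such differences, so genes of like abundance were set beside each group. The 2387 protein-coding genes within the range of cytosolic means had a median of -0.23, against -0.365 for the cytosolic synthetases. The 8092 within the range of mitochondrial means had a median of -0.51, against -0.67 for the mitochondrial synthetases. Each group lay a little below its own level class.

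**Figure D2:**
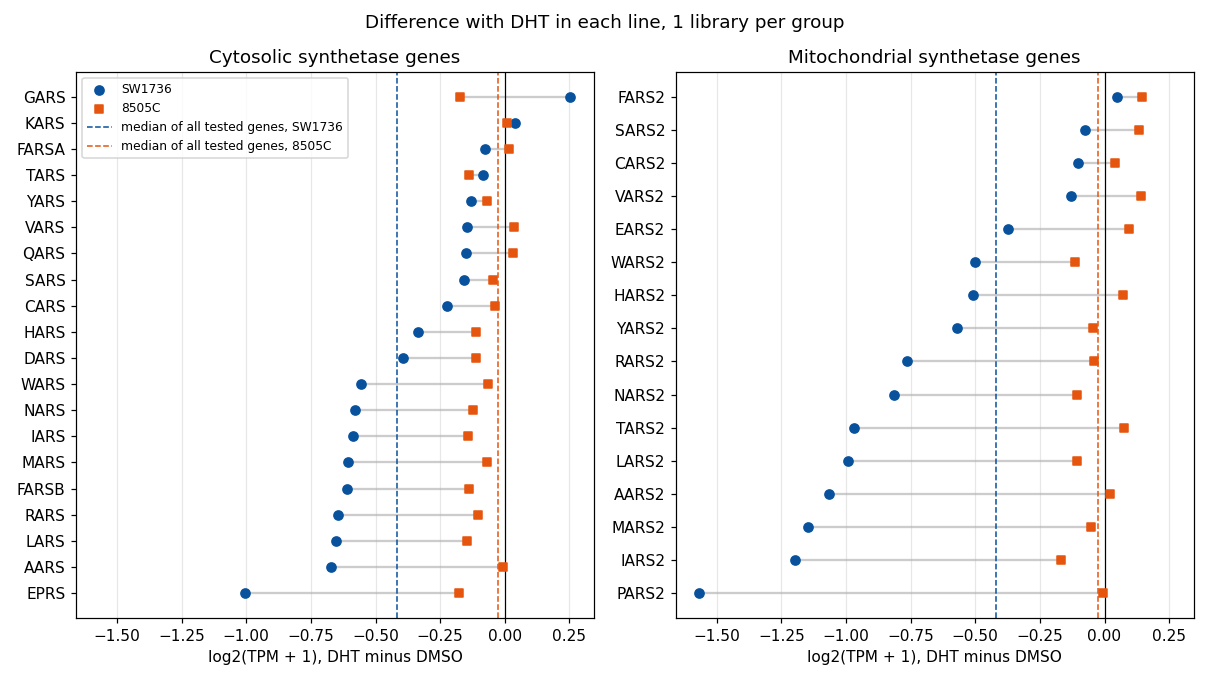
Difference in log2(TPM + 1) between DHT and DMSO for each synthetase gene, cytosolic on the left and mitochondrial on the right, in the order of SW1736; blue circles are SW1736, orange squares 8505C, each from 1 library per group, and dashed lines mark the median of all 11723 genes in each line. SW1736 spreads from 0.25 for GARS to -1.57 for PARS2, whereas 8505C stays between -0.18 and 0.15.

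The genes past 2-fold in SW1736 were PARS2, IARS2, MARS2 and AARS2 of the mitochondrial enzymes and EPRS of the cytosolic ones. EPRS, AARS2 and MARS2 were under 2-fold with a pseudocount of 5, with centring, in FPKM and with trends on length, GC content and expression removed, as was IARS2 in the last 3 of these and PARS2 in the first. PARS2 (chr1:54756898-54764553 in hg38), the mitochondrial proline enzyme, was at 5.36 TPM with DMSO and 1.15 TPM with DHT in SW1736, and at 4.43 and 4.41 TPM in 8505C. The difference was -1.57 in SW1736 and -0.0049 in 8505C. It was the lowest gene of the set in each of the 4 libraries, and at 1.15 TPM its fold is the least secure of the 5. IARS2 (chr1:220094113-220148041), the mitochondrial isoleucine enzyme, was at 92.3 and 39.7 TPM in SW1736 and at 106 and 94.2 TPM in 8505C, a difference of -1.197 and of -0.17. As the most abundant mitochondrial gene with DMSO, it went from 21.6% to 14.6% of the mitochondrial sum in SW1736. CARS2 took the first place with DHT, at 58.0 TPM.

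MARS2 (chr2:197705304-197708390), the mitochondrial methionine enzyme, was at 9.87 and 3.92 TPM in SW1736 and at 10.6 and 10.1 TPM in 8505C. Its difference of -1.15 stood beside one of -0.05. AARS2 (chr6:44298726-44313326), the mitochondrial alanine enzyme, was at 16.5 and 7.37 TPM in SW1736 and at 24.9 and 25.4 TPM in 8505C, a difference of -1.07 and of 0.02. The DHT library of SW1736 was thus the low one of the 4 for all these genes, and the 3 others lay close together for PARS2, IARS2 and MARS2.

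EPRS (chr1:219968600-220046658), the joint glutamate and proline enzyme of the cytosol, was at 95.5 and 47.1 TPM in SW1736 and at 96.5 and 85.1 TPM in 8505C. The differences were -1.01 and -0.18. The genes that serve proline in both compartments, EPRS and PARS2, were therefore both among the 5. The 2 lie apart on chromosome 1, whereas EPRS and IARS2 are near neighbours there. Just under 2-fold in log2(TPM + 1) in SW1736 stood LARS2, for leucine, at 22.8 and 10.96 TPM (-0.99), and TARS2, for threonine, at 22.9 and 11.2 TPM (-0.97). Their TPM alone were past 2-fold, at 0.481 and 0.4895 of the DMSO level. With a pseudocount of 0.1 both passed, and 7 synthetase genes were 2-fold lower.

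At the other end, GARS (chr7:30594565-30634032) was the synthetase gene with the highest difference in SW1736. It was at 199 TPM with DMSO and 237 TPM with DHT, against 133 and 118 TPM in 8505C, a difference of 0.25 and of -0.17. KARS, at 247 and 254 TPM in SW1736 and at 258 and 259 TPM in 8505C, differed by 0.04 and 0.01. These genes, which serve both compartments, were the only 2 of the 20 above 0 in SW1736, while 11 of the 20 lay above the median of all genes. Centred on the median gene, GARS stood at 0.68 and KARS at 0.47, with FARSA at 0.35 and TARS at 0.34. FARS2, the phenylalanine enzyme, was the only 1 of the 16 mitochondrial genes above 0, at 15.1 and 15.6 TPM (0.05). TARS, the most abundant synthetase mRNA in SW1736, was at 273 and 257 TPM, a difference of -0.08.

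Within pairs, the mitochondrial gene had the lower difference in 9 of 13 amino acids in SW1736, with a median of -0.23 for mitochondrial minus cytosolic. The widest gap was for threonine, where TARS2 and TARS differed by -0.88, so that the cytosolic excess went from 11.9 to 23.0 times. Isoleucine (-0.61) and methionine (-0.54) followed. Cysteine, serine, valine and tryptophan were the amino acids without that order, with gaps from 0.02 to 0.12. In 8505C the mitochondrial gene had the lower difference in 2 of 13, with a median of 0.04.

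The sums moved with these genes. In SW1736 the cytosolic sum was 2263 TPM with DHT, a difference of -16.8%, and the mitochondrial sum was 272 TPM, a difference of -36.3%. The ratio of the sums went from 6.36 to 8.31. In 8505C the sums with DHT were 2769 and 463 TPM, differences of -5.42% and -1.54%, and the ratio was 5.99. Without GARS and KARS, the ratio in SW1736 went from 5.32 to 6.51.

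The subunits of the phenylalanine enzyme, which work in equal numbers, parted in SW1736. FARSA, the catalytic subunit, was at 188 and 178 TPM (-0.08), and FARSB at 101 and 65.7 TPM (-0.61). In 8505C they were at 170.05 and 172 TPM and at 123 and 112 TPM, differences of 0.02 and -0.14. Their mRNAs differ in length and GC content, 1814 bases and 61.36% for FARSA, 3369 bases and 41.59% for FARSB. With trends on length, GC content and expression removed, FARSB stood at -0.10 in SW1736. The part of these properties was not tested.

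The 8 enzymes of the multisynthetase complex had a median of -0.60 in SW1736, and 5 of them were at least 1.5-fold lower (EPRS, IARS, LARS, MARS and RARS), where 38.2% of all genes were. The 12 cytosolic genes outside it had a median of -0.19, with 2 past that fold (AARS and FARSB). With trends on length, GC content and expression removed, the 5 stood at -0.394, -0.009, -0.037, -0.296 and -0.285 in the order given. AARS and FARSB then stood at -0.303 and -0.105. Median GC content was 43.4% in the complex and 52.92% outside it, and its part in the contrast was not tested. KARS at 0.04 and QARS, the glutamine enzyme, at -0.15 were the members of the complex furthest from its median. The scaffolds AIMP1, AIMP2 and EEF1E1 differed by -0.15, -0.03 and -0.39. By catalytic fold, the 19 enzymes of class I had a median of -0.57 and the 17 of class II one of -0.39. Every class I gene was below 0, as were 9123 of all 11723 genes.

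The genes with the CARE sites shown above were also set beside the others under DHT in SW1736. ATF4 mRNA itself was at 431 TPM with DMSO and 759.7 TPM with DHT (0.82), and at 487 and 494 TPM in 8505C. The 7 cytosolic genes with the letters had a median of -0.58, with GARS alone above 0. Centred on the median gene, their median was -0.15, with CARS, GARS and TARS above 0. AARS was at 126 and 78.7 TPM (-0.67), MARS at 134 and 87.7 TPM (-0.61), IARS at 150.4 and 99.8 TPM (-0.59) and NARS at 101 and 66.9 TPM (-0.58), while CARS was at 86.7 and 74.1 TPM (-0.22). The 9 cytosolic genes with a window and without the letters had a median of -0.335, or 0.09 centred. YARS2, the mitochondrial gene with the letters, was at 37.1 and 24.7 TPM (-0.57). For the 12 known ATF4 targets, with or without a window, the median was -0.57, and for the 8 other cytosolic genes -0.24. In 8505C the genes with and without the letters had medians of -0.12 and -0.06. No test of these groups was made, and ATF4 protein was not measured.

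Other ATF4-linked genes, those of amino acid supply, spread to both sides in SW1736. Of 19, 2 were at least 2-fold higher and 2 lower, against 2.78% and 15.6% of all genes. After centring 4 were higher and 1 lower, against 4.78% and 4.06% of all genes. Before centring, the higher were SESN2, a sensor of leucine (7.93 to 31.6 TPM, 1.87), and SLC3A2, the heavy chain of amino acid exchangers (259.9 to 858 TPM, 1.72). SLC7A11, the cystine carrier that pairs with it, was 2-fold lower (18.5 to 5.34 TPM, -1.62), as was SLC7A1, a carrier of arginine and lysine (57.0 to 25.4 TPM, -1.13). The median of the list was -0.29.

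**Figure D3:**
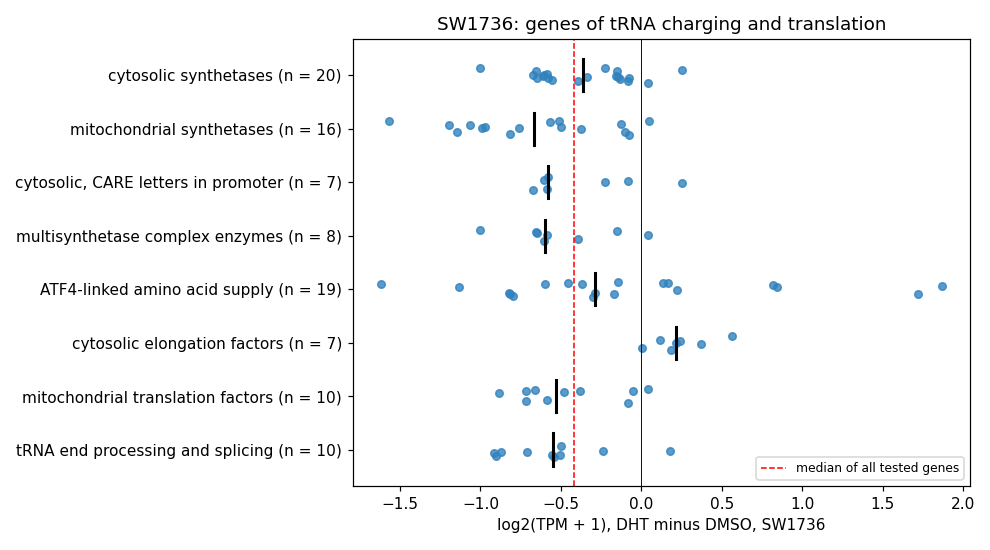
Difference in log2(TPM + 1) between DHT and DMSO in SW1736 for the synthetase genes and other genes of translation, 1 point per gene; black bars are group medians, the red dashed line is the median of all 11723 genes, and the groups marked as CARE and as multisynthetase complex are drawn from the cytosolic synthetases. Elongation factors lie above 0 with a median of 0.22, and mitochondrial synthetases have a median of -0.67.

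The other steps of translation did not move as 1 block in SW1736. All 7 cytosolic elongation factor genes were above 0, where 2441 of all 11723 genes were, with a median of 0.22. EEF1B2, an exchange factor for the protein that carries loaded tRNA to the ribosome, was at 441 and 654 TPM (0.57). Of 10 mitochondrial translation factors 9 were below 0, where 9123 of all 11723 genes were, with a median of -0.53. None was past 2-fold, where 2.78% of all genes were higher and 15.6% lower. GFM2, which recycles mitochondrial ribosomes, was at 53.6 and 28.5 TPM (-0.89), and MTFMT, which formylates the initiator methionyl-tRNA that MARS2 supplies, at 12.1 and 6.98 TPM (-0.72). The amidotransferase genes that complete glutaminyl-tRNA in mitochondria differed by -0.19 (GATB), -0.66 (GATC) and -0.65 (QRSL1), with EARS2 at -0.37.

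The 10 genes of tRNA end processing and splicing had a median of -0.55 in SW1736. TRMT10C and KIAA0391, subunits of mitochondrial RNase P, differed by -0.92 and -0.90, whereas HSD17B10, the third subunit, was at 231 and 262 TPM (0.18). TRNT1, which adds the CCA end, differed by -0.87, and ELAC2, which trims the precursor at that end, by -0.71. The 6 synthetase-like, editing and peptidyl-tRNA genes had a median of 0.03, with 3 above and 3 below 0. PTRH2, a mitochondrial peptidyl-tRNA hydrolase, was 2-fold lower (40.8 to 17.5 TPM, -1.18), and AARSD1, which removes mischarged alanine or serine, was at 0.33. In 8505C no gene of these lists was past 2-fold, where 0.273% of all genes were higher and 0.162% lower.

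WARS is also known as an interferon-stimulated gene, so that response was set beside it. WARS was at 56.9 and 38.3 TPM in SW1736 (-0.56) and at 75.0 and 71.7 TPM in 8505C (-0.06). Of 7 measured interferon-stimulated genes, 0 were past 2-fold in either line. Of all genes, 2.78% were higher and 15.6% lower in SW1736, and 0.273% and 0.162% in 8505C. In SW1736, IRF1, a transcription factor of that response, differed by -0.48 and ISG15, a ubiquitin-like protein, by 0.60, so WARS stood below both.

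In 8505C, 0 of 36 synthetase genes were past 2-fold in either direction, where 0.273% of all genes were higher and 0.162% lower. None was past 1.5-fold either, where 1.27% of all genes were higher and 0.529% lower. Levels were below DMSO in 24 and above in 12, where 6681 of all 11723 genes were below and 4940 above. The extremes were EPRS at -0.18 and FARS2 at 0.15. The cytosolic median was -0.09 and the mitochondrial median 0.01. In 11 genes the 2 lines had opposite signs, 2 of them past 1.5-fold in SW1736 (AARS2 and TARS2).

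Properties of the mRNAs went along with the differences. Over the 36 genes, Spearman's rho in SW1736 was -0.35 with mRNA length, 0.37 with GC content and 0.38 with mean TPM, and over all genes compared it was -0.42, 0.31 and 0.17. In 8505C it was 0.71 with GC content over the 36 and 0.47 over all genes. These are descriptions across genes of the same libraries, which share depth and base composition, and their part in the differences was not tested. MARS2, of 1 exon, and PARS2, of 2, are the members with the fewest exons, and without them the mitochondrial median in SW1736 was -0.54.

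Some synthetase genes share bases with a neighbour on the other strand, and whether strand was used in counting is not given. HARS and HARS2, the histidine enzymes, lie head to head on chromosome 5 with 84 bases between their RefSeq starts and share 302 bases in the deposited coordinates. HARS was at 131 and 104 TPM in SW1736 (-0.335) and HARS2 at 21.5 and 14.8 TPM (-0.51). MARS shares 68 bases with DDIT3, a stress gene that went from 14.6 to 116 TPM in SW1736 while MARS was lower. YARS shares 591 bases with S100PBP and SARS2 189 with MRPS12. Without strand, reads in these stretches could not be assigned to 1 gene.

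The untreated lines were compared as the base for the treated ones. With DMSO, 0 of 36 synthetase genes differed by 2-fold between 8505C and SW1736, where 9.97% of all genes were higher and 12.6% lower in 8505C. Past 1.5-fold, 4 were higher in 8505C (TARS, VARS, EARS2 and WARS2) and 1 lower (QARS), against 18.9% and 24.2% of all genes. The share of synthetase genes past either fold was below that background. TARS was at 273 TPM in SW1736 and 433 TPM in 8505C (0.66), VARS, for valine, at 93.3 and 151 TPM (0.69), and WARS2, for tryptophan in mitochondria, at 10.1 and 19.1 TPM (0.85). QARS was at 135 and 86.0 TPM (-0.64), GARS at 199 and 133 TPM (-0.58) and MARS at 134 and 91.8 TPM (-0.54). The cytosolic median was 0.03 and the mitochondrial median 0.16, against -0.05 for all genes.

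**Figure D4:**
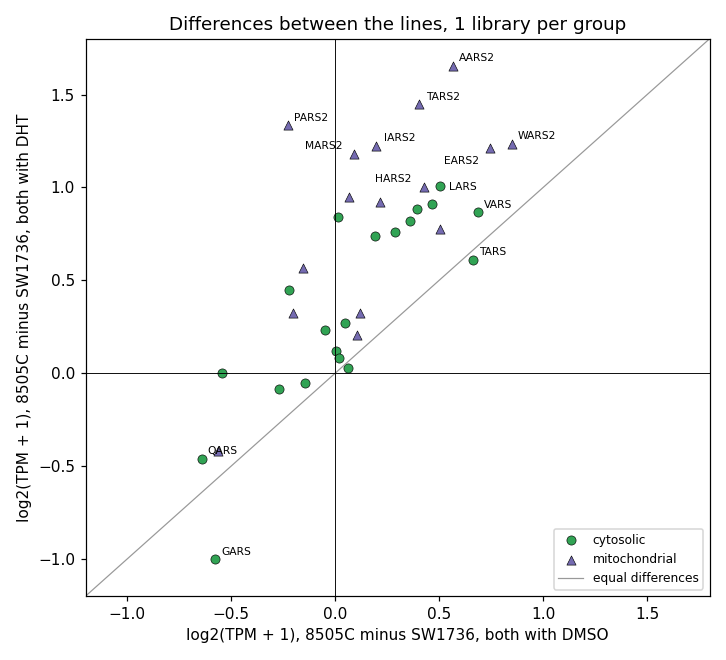
Difference in log2(TPM + 1) between 8505C and SW1736 with DMSO (horizontal) and with DHT (vertical) for each synthetase gene, circles cytosolic and triangles mitochondrial, with the grey line marking equal differences; each axis compares 1 library with 1 library. Most genes lie above the line, furthest for PARS2, which stood at -0.23 with DMSO and at 1.33 with DHT.

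With DHT, 9 of 36 were at least 2-fold higher in 8505C and 1 lower, where 24.7% of all genes were higher and 10.6% lower. The 9 were LARS of the cytosolic genes and AARS2, EARS2, HARS2, IARS2, MARS2, PARS2, TARS2 and WARS2 of the mitochondrial ones, and the 1 was GARS. Past 1.5-fold, 20 were higher and 1 lower, against 40.9% and 17.1% of all genes. The cytosolic median was 0.36, near that of all genes (0.37), and the mitochondrial median 0.98. Centred on the median gene (a shift of 0.38), 2 were higher (AARS2 and TARS2) and 1 lower (GARS), against 14.4% and 16.3% of all genes, and the cytosolic median turned to -0.02.

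AARS2 was the widest of these, at 7.37 TPM in SW1736 and 25.4 TPM in 8505C with DHT (1.66), and TARS2 followed at 11.2 and 32.3 TPM (1.45). EARS2 and WARS2 were already higher in 8505C with DMSO (0.74 and 0.85) and stood at 1.21 and 1.23 with DHT. GARS was at 237 TPM in SW1736 and 118 TPM in 8505C (-1.0035). LARS, for leucine in the cytosol, was at 54.0 and 109.8 TPM (1.01).

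A fit across all genes with both lines and both treatments (limma, additive, with 1 residual degree of freedom) gave the only test the design allows. For treatment over both lines it called 0 of 36 synthetase genes at an adjusted p under 0.05, where 0.81% of all genes were called higher and 0.205% lower. Before adjustment 2 were under 0.05: IARS2 (-0.68, limma adjusted p = 0.366) and EPRS (-0.59, limma adjusted p = 0.579), both lower in each line. Without the trend on expression and with centring the limma fit called 0 of 36, with 0 under 0.05 before adjustment. Each of these settings called only 2 of all 11723 genes higher and 0 lower, so their 0 calls here say little. The design could not test whether SW1736 and 8505C differ in their response, since each line and treatment has 1 library. In this additive fit such a difference counts as error. The 0 calls for treatment therefore say little about genes that moved in SW1736 alone.

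For line over both treatments the limma fit called 6 of 36 higher in 8505C and 1 lower, against 18.0% and 13.4% of all genes. The 6 were VARS (0.78, adjusted p = 0.00421), TARS (0.64, 0.0048), IARS (0.69, 0.00744), LARS (0.76, 0.0109), IARS2 (0.71, 0.0237) and NARS (0.59, 0.0474), and the 1 was GARS (-0.79, 0.00143). These calls depended on the setting of the fit. Without the trend it called 3 higher (AARS2, EARS2 and WARS2) and 0 lower (1 before adjustment), against 1791 and 1369 of all 11723 genes. With centring it called 6 higher (LARS, VARS, AARS2, EARS2, TARS2 and WARS2) and 3 lower (GARS, QARS and CARS2), against 2093 and 2311. No gene was called under all 3 settings.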

How the data were processed

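RNA was isolated with RNeasy columns and made into mRNA libraries from 1 µg of total RNA, per the labels' protocols. The build was hg38 and the tools included StringTie and bcl2fastq 2.20, per the submitters' processing notes. The StringTie version, annotation and aligner were not given in the sources used here. Deposited tables hold TPM, which sums to 1000000 in each library, per the file headers and values. Deposited FPKM is scaled by mapped fragments and length, and deposited coverage is read depth over exons. A rise of abundant mRNAs therefore lowers the TPM of all others.

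TPM was summed per identifier. CARS, VARS and VARS2 had several loci, all but 1 of each at 0. Of 26485 identifiers 25404 matched a gene, 19083 were protein-coding and 11723 had a mean of at least 1 TPM. Differences used log2(TPM + 1). The members and lists were chosen with earlier results of these data known. All members are named, lists of up to 5 genes in full, and otherwise up to 4 genes with the largest mean difference at a mean of at least 5 TPM. ATF4, KRT8, HSD17B10, DDIT3, S100PBP and MRPS12 were named after their values were seen. A few genes are not reported here. Centring subtracted the median over protein-coding genes of 5 TPM or more on average.

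limma 3.58.1 in R 4.3.3 (trend, two-sided, Benjamini-Hochberg over all genes compared) was tested on simulated data. Its prior degrees of freedom were infinite with the trend, 19.5 without it and 8.45 with centring, so the test rests on the spread shared by all genes. That spread mixes how far the lines differ in their response to DHT with the noise of single cultures and libraries, which the additive fit cannot tell apart. P-values therefore do not measure a spread between replicate cultures by itself, and no replicate cultures are stated. Other steps used numpy 2.4.6, scipy 1.17.1 and pandas 2.3.3 in Python 3.11.15. Lengths, exons and GC content are from GENCODE 29. Alternatives changed the pseudocount, filter, fold, scaling, unit, dual genes and limma settings. Removal of trends on length, GC content and expression was added after the data were seen.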

Additional observations from a re-analysis of the deposited data

Results flagged for a closer look

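The lines stood on opposite sides of 0 with DHT in 3 results where SW1736 was past 1.5-fold. AARS2 differed by -1.07 in SW1736 and by 0.0226 in 8505C. TARS2 differed by -0.97 in SW1736 and by 0.0741 in 8505C. The median of the 16 mitochondrial synthetases was -0.67 in SW1736 and 0.0089 in 8505C. With 1 library for each line and treatment, none of these contrasts was tested, and the 8505C values lie close to 0.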

How the results depend on the processing

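No called value changed direction, and of the recomputed counts, medians and ratios 128 stayed and 34 moved. In SW1736 with DHT, 5 genes past 2-fold became 1 with a pseudocount of 5, with centring, in FPKM and with the trends removed (IARS2 in the first of these and PARS2 in the others), 3 without ribosomal protein and non-coding genes, and 15 past 1.5-fold. The cytosolic median became 0.063 with centring, -0.14 in FPKM and -0.01 (-0.0096) with the trends removed, and the mitochondrial one -0.24, -0.43 and -0.36. The summed levels with DHT were 0.971 (cytosolic) and 0.743 (mitochondrial) of those with DMSO in FPKM.

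Between the lines with DMSO, 1.5-fold gave 4 higher and 1 lower. With DHT, 9 higher became 4 with a pseudocount of 5, 2 with centring, 3 in FPKM, 3 with the trends removed and 20 past 1.5-fold, and 1 lower became 0 with a pseudocount of 5. The cytosolic median became -0.023 with centring, 0.15 in FPKM and 0.0845 with the trends removed, and the mitochondrial one 0.76 with a pseudocount of 5 and 0.60, 0.74 and 0.68. Without GARS and KARS the ratio of sums was 5.32, 6.51, 5.40 and 5.17 in SW1736 with DMSO and DHT and 8505C with DMSO and DHT. The limma fit for line called 3 in all without the trend, where 1791 of all 11723 genes were called higher and 1369 lower. For single genes over all settings, 293 values stayed on their side of the fold, 29 passed it and 45 fell short of it. Most of the 29 were unchanged values set against the lower fold of 1.5. The others were LARS2 and TARS2 in SW1736 and LARS2 between the lines with DHT, with a pseudocount of 0.1.

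Leaving out a library leaves limma no residual degrees of freedom and was not run. The limma fit of treatment holds the line as a block, and no replicate number pairs the libraries further. Depth in reads is unknown, which limits genes such as PARS2 at 1.15 TPM.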
